A study of Mus musculus with 7 samples.

Results

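Microglia of the posterolateral cortical amygdala (plCoA) were examined among nuclei that had been sequenced one by one from 2 domains of this olfactory area, an anterior one (aplCoA) and a posterior one (pplCoA). All animals were male C57BL6J mice of 8 weeks in both domains, with no treatment compared. Per the study's methods they were housed singly and deprived of sensory input before they were killed, a step meant to keep immediate early genes low. Each library came from tissue pooled over several mice, so that a replicate is a pool and not an animal. A nucleus was taken as a barcode with at least 1000 genes and at most 30000 UMIs (unique molecular identifiers, each standing for 1 captured transcript). It was counted as microglia where Csf1r, Inpp5d, Siglech and P2ry12 gave at least 4 UMIs in all with at least 2 of these genes detected, F13a1 and Mrc1 gave at most 1 UMI, and Slc17a7, Slc17a6, Gad1 and Gad2 gave at most 1 UMI. Of 51115 nuclei, 3504 (6.86%) met this rule. The aplCoA replicates 1, 2 and 3 held 940, 248 and 537 microglia, and the pplCoA replicates held 795, 499 and 485. Each domain had 3 replicates, and aplCoA replicate 1 was the sum of 2 libraries. The nuclei were thus selected on their own UMI counts of 10 genes, so the contrast of microglia with other classes was not tested. Those genes were not left out of the fits between domains, but no test of them is given.

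Microglia are the resident macrophages of the brain parenchyma. They arise from yolk sac progenitors, depend on signalling through the receptor Csf1r, survey their surroundings with motile processes, sense nucleotides released by other cells through P2ry12, and clear debris and synaptic material with the help of complement. Border macrophages of the meninges and of the spaces around vessels are close relatives that carry the scavenger receptor Mrc1 and the transglutaminase subunit F13a1. In the resting state, microglia express a set of homeostatic genes that is lost in part when the cells are activated.

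The marker genes used by the rule were abundant in every replicate, which describes the choice of nuclei and is not a result. Levels are given as CPM, the UMIs of a gene per 1000000 UMIs summed over the nuclei of a class. Inpp5d, a lipid phosphatase of immune cells, stood at 2235 CPM in microglia (2120 to 2492 over the 6 replicates), P2ry12 at 1498 CPM (1400 to 1763), Csf1r at 1344 CPM (1151 to 1670) and the lectin Siglech at 1338 CPM (1242 to 1488). All 4 genes were detected together in 86.5% of microglia, and the median nucleus held 22 UMIs of them, with 10 at the 10th and 44 at the 90th percentile. F13a1 stood at 1.40 CPM and Mrc1 at 6.17 CPM in microglia, against 6070 and 3759 CPM in the 315 nuclei with at least 3 UMIs of these genes, called macrophages here. At the threshold, the 87 nuclei with 3 marker UMIs that were left out had a median of 5800 UMIs in all, 1220 CPM of a list of 25 homeostatic genes, and met the marker rule of another class in 35.6% of cases. The 59 nuclei just inside, with 4 marker UMIs, had a median of 6369 UMIs, 1574 CPM of the same list and a second class in 20.3%. The 2027 nuclei with at least 20 marker UMIs held 27892 CPM of the homeostatic list, so that the edge of the class differed from its bulk.

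Sequences around the transcription start of these genes are shown because PU.1, encoded by Spi1, is the lineage factor of microglia and binds purine-rich motifs in the promoters of many myeloid genes. RefSeq promoter windows of build GRCm38.p6, from 250 bases before to 50 bases after the start, were available for 3 of the 4 markers and for 13 of the 25 genes that set microglia apart most. The motif GAGGAAGT was searched on both strands. It stood in 3.2% of all 32851 windows, in the windows of Inpp5d and Havcr2, and not in those of Siglech and P2ry12. The windows lie at chr1:87620062-87620361 on the plus strand for Inpp5d, at chr11:46454681-46454980 on the plus strand for Havcr2 (the immune receptor TIM-3), at chr7:55767934-55768233 on the plus strand for Siglech and at chr3:59262936-59263235 on the minus strand for P2ry12. Capitals mark the motif, whose first base lies at -20 from the start of Inpp5d and at -8 from that of Havcr2.
Inpp5d: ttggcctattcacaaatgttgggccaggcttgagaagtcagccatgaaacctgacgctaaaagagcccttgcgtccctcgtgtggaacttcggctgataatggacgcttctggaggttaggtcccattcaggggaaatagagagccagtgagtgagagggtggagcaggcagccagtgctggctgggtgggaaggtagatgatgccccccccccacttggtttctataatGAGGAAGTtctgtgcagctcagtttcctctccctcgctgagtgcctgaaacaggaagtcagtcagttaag
Havcr2: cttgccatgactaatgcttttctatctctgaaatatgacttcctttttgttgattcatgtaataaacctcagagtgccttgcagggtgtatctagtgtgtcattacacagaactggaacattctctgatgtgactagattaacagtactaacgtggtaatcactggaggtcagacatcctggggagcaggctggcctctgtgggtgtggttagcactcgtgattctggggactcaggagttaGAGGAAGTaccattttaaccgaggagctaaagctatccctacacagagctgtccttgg
Siglech: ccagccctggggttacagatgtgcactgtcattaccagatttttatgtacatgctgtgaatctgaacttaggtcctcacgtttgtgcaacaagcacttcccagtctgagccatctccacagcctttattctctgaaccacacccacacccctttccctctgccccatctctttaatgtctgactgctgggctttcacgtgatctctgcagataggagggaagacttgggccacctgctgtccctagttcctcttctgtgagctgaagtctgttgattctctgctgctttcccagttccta
P2ry12: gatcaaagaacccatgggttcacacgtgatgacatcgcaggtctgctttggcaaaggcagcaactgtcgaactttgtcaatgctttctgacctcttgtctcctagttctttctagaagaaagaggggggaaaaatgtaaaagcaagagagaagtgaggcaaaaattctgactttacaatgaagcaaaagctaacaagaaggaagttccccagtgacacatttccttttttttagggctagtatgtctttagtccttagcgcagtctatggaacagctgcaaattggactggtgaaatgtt
Among the 25 leading genes, 1 of 19 windows held the motif (5.26%), and among the homeostatic genes 2 of 27 windows did (7.41%), those of the protease Ctss and the transporter Slco2b1. A match of letters describes the window and is not a binding site.

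Total UMIs per library ranged from 50812605 to 129624583. Microglia had a median of 3297.5 UMIs and 1782.5 genes per nucleus, and the replicate medians were 3226, 4150 and 3052 UMIs in aplCoA and 3152, 3356 and 3386 UMIs in pplCoA. The domain difference of these medians was 178 UMIs, with overlapping replicates (two-sided exact permutation test, p = 0.9), and was -159 UMIs without aplCoA replicate 2, the deepest. Before the limits on other genes, 4310 nuclei reached the marker threshold. The limit on neuronal genes took out 553 of them and the limit on macrophage genes 293. Another marker rule was also met by 165 microglia (4.71%), mostly that of astrocytes with 110 nuclei, and Scrublet, which scores nuclei against artificial doublets, marked 199 microglia (5.68%) against 8.45% of all nuclei. The highest scores of each library were marked, in a number set in advance by its count of nuclei. Microglia were also selected by limits on neuronal and macrophage genes, so these percentages do not compare doublet rates. Any pair of libraries shared 5 to 36 nuclear barcodes, and 3 barcodes were shared among microglia.

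Microglia carried a distinct set of transcripts. Among 3293 genes with at least 50 CPM in each microglial replicate, 509 (15.5%) were above each of 8 other marker-defined classes in 6 of 6 replicates. As the same counts placed the nuclei in their class, this contrast is a description without a test. The 25 genes with the largest ratio to the highest other class, the rule genes set aside, reached at least 50 CPM in each replicate and were above every other class in 6 of 6 replicates.

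Several of these leading genes are established microglial identity genes. Sall1, a transcription factor that keeps microglia in their tissue-specific state, stood at 440 CPM, with 362, 497 and 461 CPM in the aplCoA replicates and 431, 468 and 510 CPM in the pplCoA replicates. Astrocytes came next with 16.3 CPM, and macrophages held 7.79 CPM. Tmem119, a membrane protein used as a microglial marker, stood at 359 CPM against 15.6 CPM in macrophages. Its replicates were at 286, 470 and 398 CPM in aplCoA and at 310, 366 and 455 CPM in pplCoA, so that the domains overlapped. The fructose transporter gene Slc2a5 stood at 142 CPM against 6.06 CPM in macrophages, and Selplg, the ligand of P-selectin, at 827 CPM against 54.5 CPM. Tgfbr1, the type 1 receptor of TGF-beta, on which the microglial state depends, stood at 3218 CPM, with 312 CPM in macrophages and 185 CPM in fibroblasts.

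**Figure D1:**
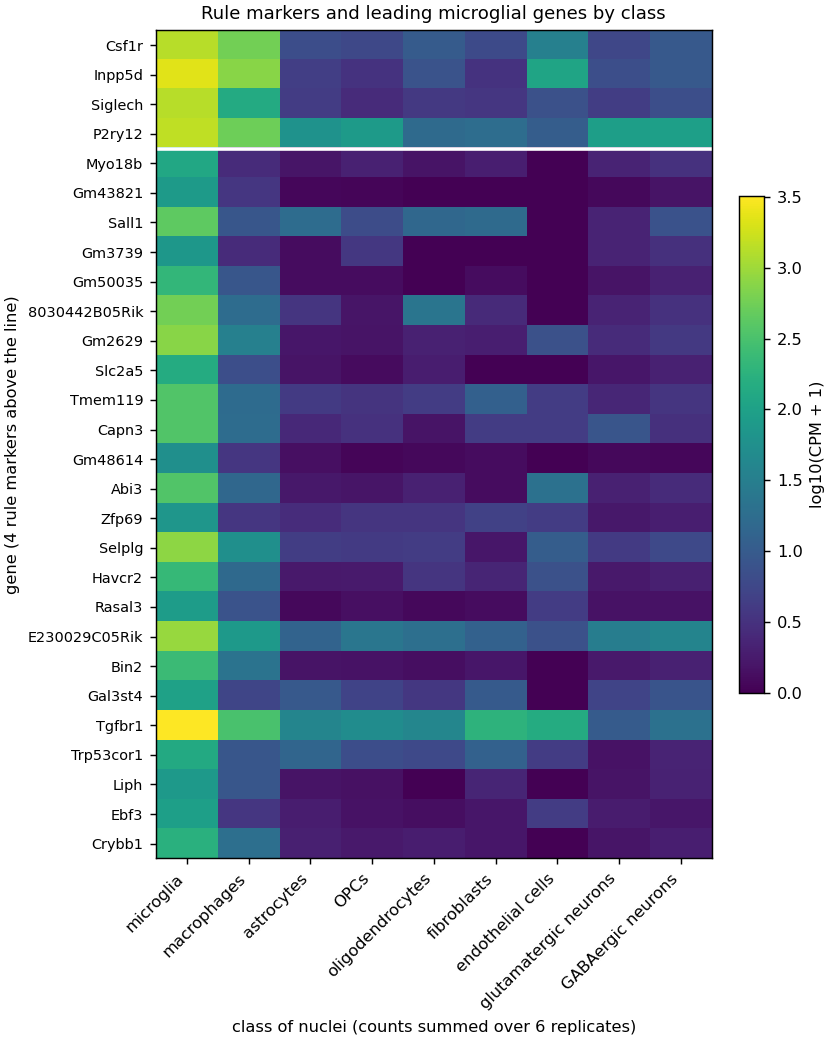
Levels of the 4 rule markers (above the white line) and of 24 of the 25 leading genes in 9 classes of nuclei, as log10 of CPM + 1 in colour, with counts summed over the 6 replicates. Microglia form the brightest column in every line, from Myo18b (126 CPM, next GABAergic neurons at 2.14 CPM) to Crybb1 (167 CPM, next macrophages at 18.2 CPM), and macrophages are the next brightest for most of the genes.

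Other leading genes are less often named for microglia. Myo18b, an unconventional myosin, had the largest ratio, 59.0, with 126 CPM in microglia and 2.14 CPM in GABAergic neurons. The calpain protease gene Capn3 stood at 364 CPM with a ratio of 22.1 to macrophages, and Abi3, which acts on the actin cytoskeleton, at 363 CPM with a ratio of 18.7 to endothelial cells. The receptor gene Havcr2 had a ratio of 15.1, the BAR domain gene Bin2 11.9 and the crystallin gene Crybb1 9.21. The Ras regulator Rasal3, the sulfotransferase Gal3st4, the lipase Liph, the zinc finger gene Zfp69, the transcription factor Ebf3 and the long noncoding RNA Trp53cor1 also belonged to the set, at 69.2 to 133 CPM. A further 7 were predicted or unnamed transcripts, among them 8030442B05Rik at 571 CPM, Gm2629 at 770 CPM and E230029C05Rik at 928 CPM. Without the nuclei of the mixed clusters described further on, 638 genes were above each other class in 6 of 6 replicates.

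Macrophages, close relatives of microglia, were compared with them gene by gene. The genes named here were chosen for replicates that did not overlap. Over 4612 genes with at least 50 CPM in either class, rule genes included, 778 (16.9%) were higher in microglia and 482 (10.5%) higher in macrophages, with no overlap between the 6 replicates of each class. F13a1 and Mrc1 defined this contrast, so the counts are a description. On the microglial side, Sall1 had 9 UMIs in all macrophages, and Myo18b, Upk1b, Lag3, D7Ertd443e and Gm3739 had 2 UMIs each, against 72.0 to 126 CPM in microglia. D7Ertd443e was higher still in oligodendrocytes, at 952 CPM. Lag3 encodes an inhibitory immune receptor and stood at 76.8 CPM in microglia (62.1 to 124 over replicates). On the side of the macrophages, the haemoglobin scavenger receptor gene Cd163 stood at 506 CPM (286 to 749), with 3 UMIs in all microglia. Ms4a7 stood at 394 CPM with 2 UMIs in microglia, and Lyve1, the hyaluronan receptor of perivascular and lymphatic cells, at 235 CPM with 2 UMIs. Ms4a4a gave no UMI in microglia and 400 CPM in macrophages, at least 1814-fold higher when 3 UMIs over all microglia are taken as the limit. Aoah, which inactivates bacterial endotoxin, stood at 1.47 CPM in microglia and 828 CPM in macrophages.

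**Figure D2:**
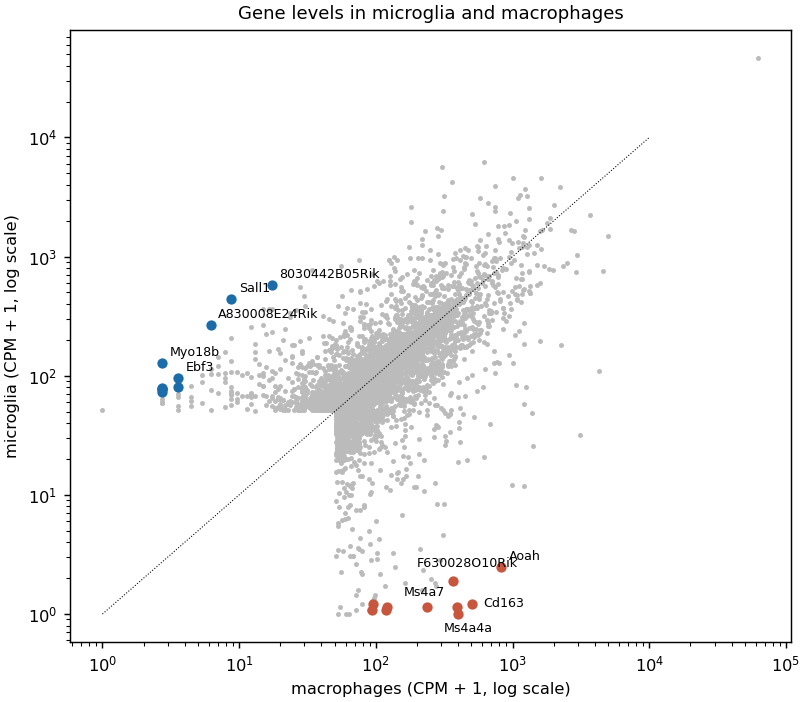
Level of each gene in macrophages (horizontal) and microglia (vertical), in CPM + 1 on logarithmic axes, for genes with at least 50 CPM in either class and the rule genes left out, with equal levels on the dotted line. Blue points are the 10 genes furthest to the microglial side, such as Sall1 (440 against 7.79 CPM), and red points the 10 furthest to the macrophage side, such as Cd163 (506 CPM, with 3 UMIs in microglia).

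The homeostatic list was the most complete in microglia. All 25 of its genes were highest in microglia, and 22 were above every other class in 6 of 6 replicates. Of the 3293 genes with at least 50 CPM in each microglial replicate, 15.5% were above every other class in this way. The list members were not held to that level. The share of all genes that were highest in microglia was not computed. The counts for this and the further lists are thus a description. Cst3, which encodes cystatin C, stood at 6253 CPM, the receptor tyrosine kinase gene Mertk at 2404 CPM, and the fractalkine receptor gene Cx3cr1 at 1741 CPM against 280 CPM in macrophages. Of 15 transcription factors of the lineage, 11 were highest in microglia and 8 were so in each replicate. Spi1 stood at 293 CPM in microglia and 180 CPM in macrophages, and Irf8, a factor of myeloid development, at 265 and 80.5 CPM. Runx1 stood at 1248 CPM in microglia and 1328 CPM in macrophages, and was highest in microglia in 1 of 6 replicates. In the TGF-beta pathway, 7 of 11 genes were highest in microglia, and Ski, which restrains its signalling, stood at 632 CPM.

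Of 10 complement genes, 5 were highest in microglia, among them the 3 chains of C1q and Itgam. C1qb stood at 1006 CPM (809 to 1348 over replicates) against 435 CPM in macrophages, C1qa at 962 CPM against 384 CPM, and C1qc at 760 CPM against 373 CPM. Itgam, a subunit of the complement receptor CR3, stood at 591 CPM against 138 CPM. C3, the central component of the cascade, gave no UMI in any microglial nucleus. Purine-sensing and channel genes were split: Entpd1, which breaks down extracellular ATP, stood at 996 CPM and was the highest of all classes, whereas the ATP-gated channel gene P2rx7 stood at 235 CPM against 1121 CPM in macrophages. Of 19 genes for lysosomes and lipid handling, 12 were highest in microglia, among them the protease gene Ctsd at 876 CPM against 129 CPM in macrophages.

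Genes linked to activation were mixed in level. In the damage-associated list of 18 genes found, 6 were highest in microglia. Trem2 stood at 299 CPM (246 to 378) and its adaptor Tyrobp at 283 CPM (210 to 360), both higher than in any other class. The members induced in disease were near 0: Spp1 stood at 1.47 CPM, Itgax at 1.76 CPM, Cst7 at 0.96 CPM and Gpnmb at 0.29 CPM. Apoe, a lipid carrier of astrocytes and of activated microglia, stood at 179 CPM in microglia, at 1232 CPM in astrocytes, at 2249 CPM in macrophages and at 1766 CPM in barcodes with at most 100 UMIs, which hold free RNA. The MHC class II genes Cd74 and H2-Aa stood at 5.73 and 1.84 CPM in microglia against 155 and 91.8 CPM in macrophages. None of 17 interferon response genes was highest in microglia, with Trim30a at 117 CPM against 216 CPM in macrophages. Of 19 cytokine and innate sensing genes, 10 were highest in microglia. Il1a stood at 47.4 CPM in microglia and at 0.87 CPM in macrophages, whose value rests on few UMIs, and the inflammasome gene Nlrp3 stood at 117 CPM against 68.4 CPM. In the sum over replicates, no proliferation gene exceeded 4.63 CPM, and no marker of other leukocytes exceeded 6.91 CPM. Proliferation genes summed to 23.8, 17.4 and 18.7 CPM in the aplCoA replicates and to 26.6, 67.3 and 63.6 CPM in the pplCoA replicates, against 53.6 to 233 CPM in free RNA. Mki67, a marker of cycling cells, stood at 1.13, 0 and 0 CPM in aplCoA and at 1.02, 10.8 and 8.79 CPM in pplCoA, and Top2a, the topoisomerase of dividing cells, at 0.85, 0 and 0.49 CPM against 0.34, 10.3 and 7.76 CPM. The higher levels of both thus lay in pplCoA replicates 2 and 3. Both genes were too rare for the main test between domains, which has a filter on low counts, and were named after their values were seen. The fit without that filter, given further on, called both.

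Rare states were read as the share of microglia with at least 1 UMI of a list after each nucleus had been thinned to 1500 UMIs, which kept 245 to 927 microglia per replicate. Astrocytes thinned alike served for comparison, and their replicate medians of 3111 to 3740 UMIs were near those of microglia. Macrophages thinned alike, of which a replicate held 25 to 101, are given as well. Cytokine transcripts were found in 10.1% ± 0.941 (SD, n = 3) of aplCoA and 10.1% ± 0.772 (SD, n = 3) of pplCoA microglia. Astrocytes stood at 0.167% and 0.236%, and macrophages at 5.84% and 11.4%. Interferon response transcripts were found in 39.2% ± 1.75 and 38.2% ± 2.23 (SD, n = 3 each), against 13.6% and 13.3% of astrocytes and 59.4% and 68.6% of macrophages. MHC class II transcripts were found in 0.781% ± 0.390 and 0.586% ± 0.492 (SD, n = 3 each), with astrocytes at 0.222% and 0.0920% and macrophages at 10.2% and 8.95%. Inducible damage-associated transcripts were found in 1.60% ± 0.464 and 1.31% ± 0.120 (SD, n = 3 each). Astrocytes, at 5.80% and 5.85%, and macrophages, at 5.15% and 7.47%, were higher. The part of free RNA in these shares was not tested. Proliferation transcripts were found in 3.33% ± 1.22 and 3.14% ± 0.501 (SD, n = 3 each), near the 3.46% and 4.22% of astrocytes. Macrophages stood at 17.3% and 26.7%. With at least 2 UMIs of the proliferation list, the shares were 0.216%, 0% and 0% of aplCoA and 0.380%, 0.610% and 0.620% of pplCoA microglia, without overlap (two-sided exact permutation test, p = 0.1, the smallest possible), on 2, 0 and 0 nuclei against 3, 3 and 3. In astrocytes these shares averaged 0.0891% and 0.146%. Immediate early transcripts at 2 or more UMIs were also without overlap (two-sided exact permutation test, p = 0.1). They were found in 2.05%, 2.86% and 2.43% of aplCoA and 1.39%, 1.83% and 1.24% of pplCoA microglia, with astrocyte means of 5.75% and 2.84%. MHC class II transcripts without thinning stood at 1.92%, 1.61% and 1.86% against 1.51%, 1.00% and 1.24% (two-sided exact permutation test, p = 0.1). Astrocytes averaged 0.521% and 0.15% there. These comparisons were picked for their lack of overlap from 6 lists, each under several settings of thinning and UMIs. The other comparisons of all replicates overlapped. Immediate early transcripts were found in 17.3% ± 1.65 of aplCoA and 14.7% ± 1.28 of pplCoA microglia (SD, n = 3 each). Astrocytes stood at 14.9% and 10.9%, and macrophages at 10.2% and 6.13%. The 6 comparisons between domains each had an adjusted p of 0.9 in two-sided exact permutation tests, in which 3 against 3 replicates cannot go below 0.1 before adjustment. Without thinning, the shares were 20.3% and 19.9% for cytokines, 64.2% and 63.5% for the interferon response, 1.80% and 1.25% for MHC class II, 3.62% and 3.23% for damage-associated, 7.23% and 7.46% for proliferation and 35.2% and 30.7% for immediate early transcripts.

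Clustering of microglia alone, without the 10 rule genes, gave 10 groups, which are described by their leading genes. The large groups of 741, 715, 698, 610 and 437 nuclei shared the homeostatic list at 20420 to 40839 CPM. The groups of 698 and 437 nuclei were led by Cst3 and by lysosomal, C1q or ribosomal genes. C1qa stood at 2575 CPM in the group of 437 nuclei against 801 CPM in the other microglia, and ribosomal protein genes summed to 17118 CPM there against 5578 CPM in the group of 741 nuclei. The group of 715 nuclei had the lowest median depth, 2261 UMIs. It was led by Slco1a4, at 56.9 CPM against 0.42 CPM in the other microglia, Ebf1 and Arhgap15. Its neuronal list summed to 2200 CPM, against 853 to 1193 CPM in the other large groups. At resolution 1.0, a group of 395 nuclei was led by Slco1a4, Mecom, Flt1 and Ebf1. Mecom and Flt1 are marker genes of the endothelial rule. The source of these transcripts was not tested. The borders of these large groups moved with the resolution. The group of 741 nuclei was led by genes such as Nhs, Csmd3 and Nav3. It held 17.98%, 18.15% and 21.2% of the aplCoA microglia and 24.4%, 22.7% and 21.9% of the pplCoA microglia by replicate, without overlap. Of the 10 groups, no other was without overlap, and these shares were not tested. The group of 715 nuclei held 34.68% of the microglia of aplCoA replicate 1 and 26.04% of those of pplCoA replicate 1. Its share was smaller in every other replicate of both domains, down to 7.216% in pplCoA replicate 3. The group of 698 nuclei held 8.09%, 38.7% and 21.2% of the aplCoA microglia and 12.2%, 29.7% and 34.4% of the pplCoA microglia by replicate.

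A small group of 56 microglia (1.60%) stood out by chemokine and early response genes. The chemokine genes Ccl4, Ccl3 and Ccl12 stood at 322, 120 and 163 CPM in it, against 0.97, 0.90 and 7.25 CPM in the other microglia. The stress-induced factor gene Atf3 stood at 129 CPM against 2.92 CPM, the growth factor gene Csf1, whose product binds Csf1r, at 236 CPM against 11.2 CPM, and Cd83, a surface protein of activated antigen-presenting cells, at 253 CPM against 21.8 CPM. Scrublet marked 0% of this group, and its homeostatic list summed to 23731 CPM. It was found in each replicate, with 16, 3 and 7 nuclei in aplCoA and 14, 6 and 10 in pplCoA, or 1.20% to 2.06% of the microglia of a replicate.

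**Figure D3:**
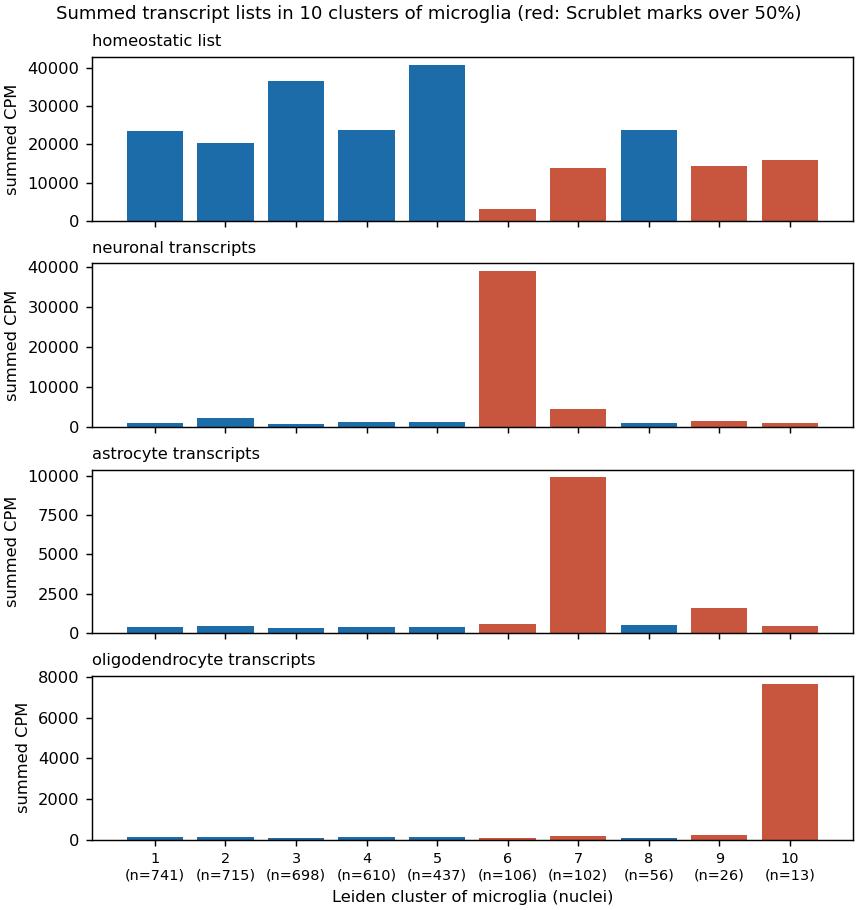
Summed levels of 4 transcript lists, in CPM, in the 10 clusters of microglia, numbered by size with the number of nuclei below. Red bars are the 4 clusters in which Scrublet marked over 50% of nuclei: cluster 6 holds 39012 CPM of the neuronal list, cluster 7 holds 9888 CPM of the astrocyte list and cluster 10 holds 7690 CPM of the oligodendrocyte list, whereas cluster 8, the chemokine group, is not among them.

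The other 4 small groups carried transcripts of further classes. A group of 106 nuclei had a median of 10925 UMIs, only 7 marker UMIs, 39012 CPM of 10 neuronal genes and 3128 CPM of the homeostatic list, and Scrublet marked 56.6% of it. A group of 102 nuclei held 9888 CPM of the astrocyte list, with 89.2% marked. Groups of 26 and 13 nuclei were led by fibroblast genes such as Slc6a20a and Aldh1a2 and by oligodendrocyte genes such as St18, with 96.2% and 100% marked. These 4 mixed groups held 247 nuclei (7.05% of microglia, 4.44% to 8.42% by replicate), and 3257 microglia were left without them. Over all microglia, neuronal genes summed to 2424 to 6298 CPM by replicate, and to 778 to 1711 CPM without the mixed groups, against 17953 to 30182 CPM in barcodes of free RNA.

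Microglia made up a smaller share of nuclei in aplCoA than in pplCoA. The shares were 5.93%, 5.92% and 5.29% in the aplCoA replicates and 8.20%, 8.77% and 8.75% in the pplCoA replicates. Every pplCoA replicate was above every aplCoA replicate, and both libraries of aplCoA replicate 1, at 5.70% and 6.44%, were below all of pplCoA. The means were 5.71% ± 0.366 and 8.57% ± 0.325 (SD, n = 3 each), a difference of -2.86 percentage points with the smallest p that an exact permutation test of 3 against 3 replicates can give, 0.1 (two-sided). With limma on the logit scale over 11 classes, the method nearest to that of the study, the difference was -0.44 with an adjusted p of 0.0286. The direction held without the mixed groups, at 5.35% ± 0.392 and 7.96% ± 0.264 (SD, n = 3 each), and in each other setting of the rule, with differences from -3.32 points without the limit on neuronal genes to -2.52 points without the limit on macrophage genes.

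Shares of nuclei depend on one another, and other classes moved as well. OPCs (oligodendrocyte precursors) averaged 6.36% in aplCoA and 9.97% in pplCoA (limma, adjusted p = 0.0286), and macrophages 0.788% and 0.461% (limma, adjusted p = 0.0286). Fibroblasts, which stand for meningeal tissue, averaged 2.42% and 1.13% (limma, adjusted p = 0.0798), glutamatergic neurons 21.7% and 26.7% (limma, adjusted p = 0.0892) and astrocytes 18.7% and 17.1% (limma, adjusted p = 0.472). Out of nuclei outside the fibroblast, endothelial and macrophage rules, the microglial difference was -2.70 points. Out of the nuclei of the 4 glial rules, microglia were 18.1%, 13.3% and 13.6% in aplCoA and 19.4%, 21.9% and 22.8% in pplCoA, again without overlap. The part of dissection and of nuclear recovery in these shares was not tested.

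**Figure D4:**
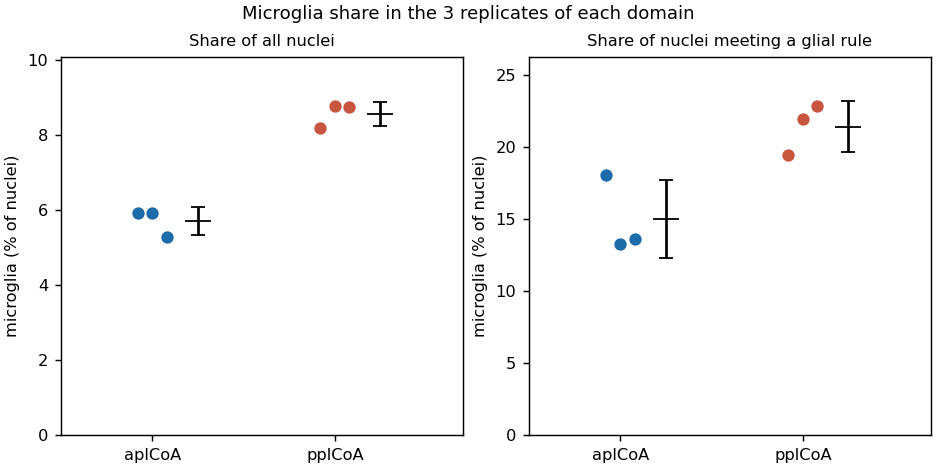
Microglia in each replicate of aplCoA and pplCoA as a percentage of all nuclei (left) and of nuclei that met one of 4 glial rules (right), with the mean ± SD of 3 replicates beside the points. On the left the aplCoA replicates lie between 5.29% and 5.93% and the pplCoA replicates between 8.20% and 8.77%, and on the right aplCoA replicate 1, at 18.1%, is the nearest to pplCoA.

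Gene expression of microglia was compared between the domains. Of 5543 genes with a UMI in at least 10% of the microglia of a domain, 0 (0%) passed an adjusted p of 0.05 in edgeR's quasi-likelihood test with Benjamini-Hochberg adjustment. At an unadjusted p under 0.05 stood 174 genes (3.14%), 99 higher in aplCoA and 75 higher in pplCoA. Without overlap between the replicates, 280 genes (5.05%) were higher and 164 (2.96%) lower in aplCoA. DESeq2 also called 0 genes, with 59 at an unadjusted p under 0.05, and edgeR's likelihood ratio test called 3, mt-Atp6, mt-Co1 and Gm43221. The quasi-likelihood fit without a filter on low counts called 101 of 22184 genes, 35 higher and 66 lower in aplCoA, of which 51 were in the filtered set. Its smallest p-values were those of Cdh13, Lsamp, Ptgds, Pld5 and Lrrtm4. Gm16351, Gm20713 and Slc6a20a, leading genes of the mixed groups, were also among these calls. The part of transcripts of other classes in the calls was not tested. The median size of the log2 difference over all genes was 0.085 and the median standard error 0.13. In the same test, astrocytes gave 140 calls of 5245 genes, OPCs 229 of 6746 and glutamatergic neurons 1629 of 10114. These classes held 9096, 3876 and 12183 nuclei, against 3504 microglia. Macrophages, with 315 nuclei, gave 0 calls of 5945 genes. Whether the number of calls differed between classes was not tested.

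The genes with the smallest p-values in favour of aplCoA were led by mitochondrially encoded genes. mt-Atp6, a subunit of ATP synthase, stood at 69.7, 63.5 and 73.5 CPM in aplCoA and at 36.5, 39.8 and 39.3 CPM in pplCoA, a log2 difference of 0.84 (SE 0.119, adjusted p = 0.317 by edgeR's quasi-likelihood test). mt-Co1, a subunit of cytochrome oxidase, stood at 152, 126 and 118 CPM against 90.8, 63.9 and 71.9 CPM, a log2 difference of 0.79. In both genes each aplCoA replicate was above each pplCoA replicate. All 8 of the mitochondrially encoded genes tested were higher in aplCoA with an unadjusted p under 0.05 and no overlap, by a median log2 difference of 0.77 (0.53 to 0.95; mt-Nd2, the lowest, was 0.33 without aplCoA replicate 1), beside a median of -0.00035 over all genes. The median mitochondrial percentage per microglial nucleus was 0.0619%, 0.0441% and 0.0468% in aplCoA and 0.0348%, 0.0264% and 0.0265% in pplCoA, a difference of 0.0217 points (two-sided exact permutation test, p = 0.1, the smallest possible).

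These transcripts are made in mitochondria, outside the nucleus, and they moved with the domain in other classes too. The median log2 difference of the same list was 1.00 in astrocytes and 0.87 in glutamatergic neurons. Free RNA held 2985, 4366 and 3917 CPM of it in aplCoA and 977, 2342 and 3118 CPM in pplCoA, with overlap. The part of free RNA and of nuclear quality in the difference was not tested. Nuclear genes of oxidative phosphorylation leaned the same way, with 60 of 65 tested above 0 and a median of 0.26, beside 2763 of all 5543 genes above 0. The list had medians of 0.33 in astrocytes and 0.58 in glutamatergic neurons. Its summed levels in microglia overlapped, at 4061, 3299 and 3061 CPM in aplCoA and 3241, 2723 and 2830 CPM in pplCoA. Of the 65 genes, 7 had an unadjusted p under 0.05 in this direction, beside 99 of all 5543 genes (1.79%). Ribosomal protein genes leaned the other way, with 55 of 78 below 0 and a median of -0.07, whereas their medians were 0.43 in astrocytes and 0.58 in glutamatergic neurons.

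Beyond the mitochondrial genes, those with the smallest p-values in each direction were the following. Lst1, an immune gene of the MHC class III region, stood at 87.8, 100 and 88.3 CPM in aplCoA and at 67.6, 70.3 and 66.2 CPM in pplCoA, a log2 difference of 0.41. Sat1, which breaks down polyamines, stood at 290, 237 and 270 CPM against 218, 200 and 185 CPM, a log2 difference of 0.39. Zc3h6, Dpm1, Cops5 and Txndc15 followed with log2 differences of 0.43 to 0.55. In the other direction, the unannotated transcript Gm43221 stood at 66.0, 63.5 and 53.3 CPM in aplCoA and 113, 101 and 81.2 CPM in pplCoA, a log2 difference of -0.71. Thrb, a thyroid hormone receptor gene, differed by -0.58, the Ras-related gene Mras by -0.45, the kinase gene Prkx by -0.70 and the splicing factor gene Sfpq by -0.27. Galntl6, at -0.66, and Thrb are highest in GABAergic neurons and abundant in free RNA. Thrb averaged 228 and 264 CPM in free RNA of aplCoA and pplCoA, against 48.6 and 73.2 CPM in microglia. Free RNA also averaged above microglia in both domains for Galntl6, Dpm1, Cops5, Txndc15, Mras and Rpl23a. For Zc3h6 this held in pplCoA only, and Lst1, Sat1, Prkx, Gm43221, Gm46411, Cep83, Rrp1b and Sfpq were lower in free RNA. Of the genes named in this paragraph, only Gm43221, Rrp1b and Sfpq were highest in microglia among the classes. The part of free RNA in these differences was not tested. Without the mixed groups, Thrb, Galntl6 and Prkx fell under the filter on low counts and were not fitted. Rpl23a, at -0.46, has near-identical copies that can share reads. Gm46411, Cep83 and Rrp1b made up the 10 genes on this side, with -0.87, -0.37 and -0.48. The replicates of these 20 genes, chosen for their small p, did not overlap between domains, as was true of 5.05% and 2.96% of all genes by direction. None passed the adjusted threshold of edgeR's quasi-likelihood test with the filter on low counts. Without the filter, mt-Atp6, mt-Co1, mt-Co2, mt-Co3, Gm43221, Galntl6, Gm46411 and Thrb were among the 101 calls, with adjusted p from 2.239e-05 (mt-Co1) to 0.0462 (Thrb).

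**Figure D5:**
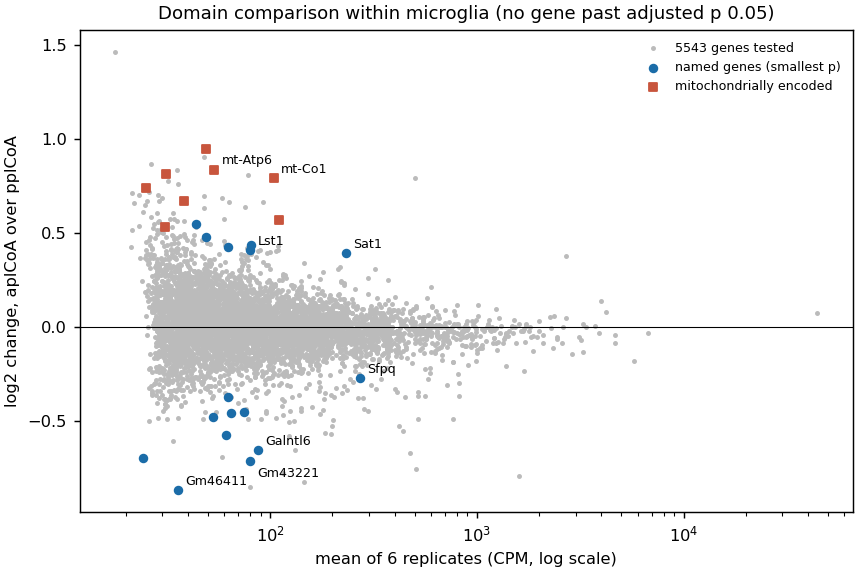
Mean level over the 6 replicates (horizontal, CPM on a logarithmic axis) and log2 difference between aplCoA and pplCoA (vertical, above 0 where higher in aplCoA) of 5543 genes in microglia. The 8 mitochondrially encoded genes (red squares) lie between 0.53 and 0.95, the other genes with the smallest p-values are blue, and no gene passed the adjusted threshold of edgeR's quasi-likelihood test.

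Of the 25 homeostatic genes, 7 were above and 18 below 0, beside 2763 of all 5543 genes above 0. None of the 25 had an unadjusted p under 0.05, beside 3.14% of all genes, and the median log2 difference was -0.02 (-0.23 to 0.12). Cx3cr1 stood at 1531, 2138 and 1787 CPM in aplCoA and at 1641, 1707 and 2029 CPM in pplCoA. The domains overlapped, and aplCoA replicate 2 was the highest. The 14 lineage factors tested had a median of -0.06. Of them, 2, Spi1 and Runx1, did not overlap between the domains, beside 2.96% of all 5543 genes in this direction. Spi1 (291, 266 and 276 CPM against 299, 301 and 311 CPM) and Runx1 (1161, 1269 and 1203 CPM against 1299, 1269 and 1339 CPM, which meet at 1269 CPM as rounded) were not above any pplCoA replicate in any aplCoA replicate, at log2 differences of -0.14 and -0.12 with an adjusted p near 1.00 by edgeR's quasi-likelihood test. C1qa stood at 835, 1144 and 925 CPM in aplCoA and 836, 994 and 1284 CPM in pplCoA, and the 7 complement genes tested had a median of -0.08.

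Medians of the other lists, beside a median of -0.00035 over all genes, were -0.03 for 8 damage-associated, 0.12 for 3 antigen presentation, 0.07 for 4 interferon response, 0.02 for 8 cytokine and innate sensing, 0.19 for 6 immediate early, 0.07 for 14 purine and channel, 0.03 for 11 TGF-beta and -0.04 for 18 lysosomal and lipid genes, and none of these genes had an unadjusted p under 0.05, beside 3.14% of all genes. The immediate early list had medians of 0.47 in astrocytes and 0.90 in glutamatergic neurons. Of the border macrophage list only Stab1 was tested, at 0.03. Among transcripts of other classes, the 9 neuronal genes tested had a median of -0.30 with all microglia and of 0.26 without the mixed groups, the 2 oligodendrocyte genes 0.44 and the 2 astrocyte genes 0.04, with 0 of them at an unadjusted p under 0.05 in edgeR's quasi-likelihood test.

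The domain difference itself was compared between microglia and astrocytes with an interaction term. Of 3848 genes tested in both classes, 0 passed an adjusted p of 0.05 in edgeR's quasi-likelihood test, with 260 at an unadjusted p under 0.05, and edgeR's likelihood ratio test called 16. For all 63 ribosomal protein genes the log2 difference was lower in microglia than in astrocytes, by a median of -0.46, beside 2116 of all 3848 genes and a median of -0.02. For the 6 mitochondrially encoded genes it was lower by a median of -0.25, and for 39 of 54 nuclear oxidative phosphorylation genes by a median over the list of -0.09. Against macrophages, of which a replicate held 25 to 103 nuclei, 0 of 4865 genes passed in edgeR's quasi-likelihood test, with 317 at an unadjusted p under 0.05, and the likelihood ratio test called 0.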

How the data were processed

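Nuclei of aplCoA (4 libraries) and pplCoA (3 libraries) from pooled tissue of male mice were captured by droplet single-nucleus RNA-seq after sorting. The authors aligned reads with Cell Ranger (5.0.0 in the submitters' processing notes) to mm10 with intronic reads and deposited raw, unfiltered UMI counts per gene and barcode, without normalization. Intronic reads favour long genes, and free RNA was not removed. Counts were summed per replicate and class, and CPM was computed from these sums. Intervals between pools measure the spread between pools only.

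The class rule, gene lists and tests were chosen with earlier results of these data known. Genes in at least 10% of microglia of a domain were tested by edgeR 4.0.16 (quasi-likelihood, TMM, R 4.3.3, threshold 0.05). The alternatives were DESeq2 1.42.0, the likelihood ratio test, other filters, size factors, marker thresholds and depths, and each replicate left out. Shares were compared by exact permutation (scipy 1.17.1) and limma 3.58.1. Clusters (scanpy 1.11.5, Leiden at 0.5, 2000 variable genes, 30 components, 15 neighbours) and Scrublet served as checks. The fits were also run on simulated counts, and the outcome is not reported here.

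Genes named were the rule genes, the 25 with the largest ratio to the highest other class at 50 CPM or more in each replicate, the 10 most extreme in each direction against macrophages (50 CPM or more in the higher class, replicates not overlapping), the 10 with the smallest p in each direction between domains together with any past the threshold, and the list members of highest CPM. Other list members were named after their values were seen. A named gene is the row with that symbol, and 78 rows share a symbol with another. Genes that these rules take in but that are not named are not reported here.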

Additional observations from a re-analysis of the deposited data

How the results depend on the processing

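Precision was limited by 3 pools per domain: an exact test could not fall below 0.1, and a domain change near the median standard error of 0.13 could not be called. Classes came from marker rules, not from the study's annotation, and 27.4% of nuclei met none. Mixed nuclei carried transcripts of other classes. Free RNA was not removed, and its part in the levels was not tested.

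The share difference (-2.86 points) lay between -3.05 and -2.65 when each replicate was left out, and was -0.44 on limma's logit scale (adjusted p = 0.0286), the only setting with a p under 0.05. The number of domain genes was 0 in 19 of 21 alternatives, leave-one-out fits included. The likelihood ratio test gave 3, and the fit without a filter 101 of 22184 genes, of which 51 were in the filtered set. That fit estimated an infinite prior df, against 5.15 with the filter. Mki67 and Top2a were among its calls. The cause of the added calls was not tested. Against astrocytes, the count was 16 by the likelihood ratio test, 1 without the mixed clusters (Foxp1, named after its value was seen, -0.80, adjusted p = 0.0329 by edgeR's quasi-likelihood test) and 0 to 16 with each replicate left out, 16 without pplCoA replicate 1. Beside Foxp1, the calls without pplCoA replicate 1 took in Kcnb2, Ralyl, Lingo2, Grm7 and Ppfia2. Against macrophages the count was 0 throughout. Without overlap or test, 558 and 638 genes led all classes after nuclei of 2 classes or mixed clusters were left out. Resolution 1.0 gave 14 clusters. One of 70 nuclei was led by Ccl4 and Ccl3 and also by the MHC class II genes H2-Eb1 and H2-Aa, Klra2 and Ccr2. Ccr2 stood at 113 CPM in it, against 4.7 CPM in the other microglia. Its list of other leukocytes summed to 124 CPM, against 4.29 CPM in the chemokine group of 56 nuclei. The identity of these nuclei was not tested.

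The depth difference lay between -159 and 390 UMIs, and the mitochondrial difference between 0.0162 and 0.0251 points, with each replicate left out. Of the state shares, immediate early genes kept their direction in 9 of 9 alternatives, with differences of 0.959 to 5.50 points, and the others changed sign in at least 1: proliferation was -0.230 points unthinned, -0.363 at 2500 UMIs and -0.465 at 2 or more UMIs, damage-associated -0.0126 at 2 or more UMIs, and cytokines -0.602 at 2500 UMIs and -0.135 at 2 or more UMIs. With each replicate left out, the ranges were -0.381 to 0.834 for proliferation, 0.0671 to 0.530 for damage-associated, -0.00711 to 0.473 for MHC class II, -0.0834 to 2.14 for the interferon response, -0.384 to 0.556 for cytokines and 1.93 to 3.55 for immediate early genes. The cause of these changes was not tested. The 20 genes with the smallest p-values and the other mitochondrially encoded genes tested kept their direction in every alternative run for them. Of these, 3 moved by over 1.5 times: Thrb to -0.34 with at least 3 marker UMIs and -0.87 with library 2 alone of aplCoA replicate 1, Galntl6 to -0.37 with at least 3 marker UMIs and -0.99 without nuclei of 2 classes, and mt-Nd2 to 0.33 without aplCoA replicate 1 and 0.31 with its library 1 alone. Other named genes were not refitted.

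The domains share replicate numbers, but the deviations of same-numbered pools correlated at 0.273, -0.183 and 0.067, so the numbers were not taken to pair the pools. With the replicate block 0 genes were called (204 at an unadjusted p under 0.05), mt-Atp6 differed by 0.83, and the paired share difference of -2.86 points had an exact p of 0.25, the smallest 3 pairs allow; the block changed no call.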
